A study of Homo sapiens with 12 samples.

Results

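The genes described were ELOVL5, ACACA, HMGCS1 and AACS, 4 genes of lipid synthesis taken by symbol. Each was measured by 1 transcript cluster, the array's set of probes for a transcript, namely 17020152 for ELOVL5, 16843728 for ACACA, 16995890 for HMGCS1 and 16758885 for AACS. They were 4 of the 14812 genes to which the annotation gave a symbol of their own, and all 4 were among the 11105 genes tested, which exceeded the median of all values on at least 2 arrays. The cells were LNCaP, a line of human prostate cancer cells that responds to androgen, and every sample carried the same control plasmid, MSCV-LMP. Cabazitaxel at 1 nM in full serum, cabazitaxel at 1 nM in charcoal dextran treated serum, docetaxel at 1 nM in full serum, docetaxel at 1 nM in charcoal serum, vehicle (EtOH) in full serum and vehicle in charcoal serum made up 6 groups of 2 arrays, all after 16 h. Charcoal treatment depletes serum of steroid hormones and other small lipophilic molecules. The labels number the replicates without naming separate cultures, so p-values measure the spread between these samples, which may be technical.

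Fatty acid synthesis starts when acetyl-CoA is carboxylated to malonyl-CoA, which fatty acid synthase then builds into palmitate and elongases extend in the endoplasmic reticulum. Cholesterol synthesis takes acetyl units along the mevalonate pathway, under feedback control by sterols through the SREBP transcription factors. In prostate cancer cells androgen is known to raise lipid synthesis, and several of these genes are known targets of androgen or SREBP signalling. ACACA encodes acetyl-CoA carboxylase alpha, which makes malonyl-CoA. ELOVL5 encodes an elongase of polyunsaturated fatty acids. HMGCS1 encodes the cytosolic HMG-CoA synthase of the mevalonate pathway, and AACS encodes acetoacetyl-CoA synthetase, which activates the ketone body acetoacetate for lipid synthesis.

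The promoter windows of the 4 genes are shown as a description, and a link of their sequence to the serum differences was not tested. Each line is a RefSeq window on GRCh38.p14, from 250 bases before to 50 after the annotated start, read along the gene's strand. Capitals mark letter matches, on either strand, to CCAAT (the NF-Y box), GGGCGG (the GC box) or CACGTG (an E-box).
ELOVL5, chr6:53348901-53349200, minus strand: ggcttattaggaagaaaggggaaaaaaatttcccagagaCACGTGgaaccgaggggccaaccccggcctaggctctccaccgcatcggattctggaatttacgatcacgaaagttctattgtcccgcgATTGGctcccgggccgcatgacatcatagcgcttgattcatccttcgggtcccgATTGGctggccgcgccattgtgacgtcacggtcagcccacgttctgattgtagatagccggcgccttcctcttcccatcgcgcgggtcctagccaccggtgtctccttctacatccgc
ACACA, the first of 3 starts, chr17:37406787-37407086, minus strand: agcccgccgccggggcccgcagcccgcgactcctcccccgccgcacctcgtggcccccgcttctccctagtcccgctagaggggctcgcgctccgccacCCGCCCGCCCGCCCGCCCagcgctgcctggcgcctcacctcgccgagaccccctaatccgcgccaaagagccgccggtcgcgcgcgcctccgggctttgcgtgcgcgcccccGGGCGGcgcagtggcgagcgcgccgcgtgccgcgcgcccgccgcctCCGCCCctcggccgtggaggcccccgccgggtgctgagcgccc
HMGCS1, the first of 2 starts, chr5:43313363-43313662, minus strand: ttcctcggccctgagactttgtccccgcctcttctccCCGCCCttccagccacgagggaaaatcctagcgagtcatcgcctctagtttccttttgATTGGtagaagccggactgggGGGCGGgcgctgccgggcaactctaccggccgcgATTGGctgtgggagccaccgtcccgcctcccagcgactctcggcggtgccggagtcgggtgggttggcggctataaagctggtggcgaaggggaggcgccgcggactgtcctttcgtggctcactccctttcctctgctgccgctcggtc
AACS, chr12:125065185-125065484, plus strand: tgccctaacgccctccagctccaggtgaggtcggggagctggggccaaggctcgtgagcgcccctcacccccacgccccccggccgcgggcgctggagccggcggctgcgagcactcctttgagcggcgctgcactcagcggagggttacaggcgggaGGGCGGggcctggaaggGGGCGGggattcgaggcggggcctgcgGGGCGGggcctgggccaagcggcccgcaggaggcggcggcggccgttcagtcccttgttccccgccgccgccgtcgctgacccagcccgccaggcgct

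The ELOVL5 window held 2 NF-Y boxes and 1 E-box and no GC box, at 57.3% G and C. The ACACA window shown held 6 GC boxes, of which 4 lie in a single overlapping run, at 82.3% G and C. Of the other two ACACA windows, chr17:37359047-37359346 held 7 GC boxes and 1 NF-Y box, and chr17:37299718-37300017 held 2 NF-Y boxes. The HMGCS1 window shown held 2 NF-Y boxes and 2 GC boxes, and its other window, chr5:43313132-43313431, held 2 GC boxes. The AACS window held 3 GC boxes. Neither the sterol regulatory element TCACNCCAC nor the androgen receptor half-site TGTTCT was found in any of the windows of the 4 genes, which says only that these letters are not there. Among 35116 promoter windows of the same length, 34.6% held an NF-Y box, 45% a GC box, 7.26% an E-box, 1.13% the sterol element and 14.8% the half-site. The array values do not say which ACACA or HMGCS1 start was in use.

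The arrays were alike as a whole. Their median intensities ranged from 22.19 to 22.43, and the replicates of a group correlated across genes with r from 0.9888 to 0.9937. There is no read depth to report for arrays, and the precision is limited by how many there are. The prostate luminal markers KLK3, KLK2, FOLH1, HOXB13, KRT8 and KRT18 exceeded the median of all values on all 12 arrays. So did FN1, VIM, THY1, CD68, CHGA and SYP, from the lists of fibroblast, immune and neuroendocrine markers. Exceeding this median therefore does not tell cell types apart. The other 4 of the 10 luminal markers listed were not analysed here.

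ELOVL5 was higher in full serum than in charcoal serum under every treatment. Its intensities were 130.5 and 143.7 with cabazitaxel in full serum, against 98.4 and 85.8 with cabazitaxel in charcoal serum. With docetaxel they were 142.7 and 134.6 in full serum, against 98.8 and 91.8 in charcoal serum. With vehicle they were 132.5 and 151.4 in full serum, against 93.1 and 96.4 in charcoal serum. All 6 full-serum arrays lay above all 6 charcoal arrays, with the lowest full-serum value at 130.5 and the highest charcoal value at 98.8. ELOVL5 averaged a log2 intensity of 7.12 ± 0.083 in full serum and 6.55 ± 0.077 in charcoal serum (SD, n = 6 arrays each, over the 3 treatments).

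**Figure D1:**
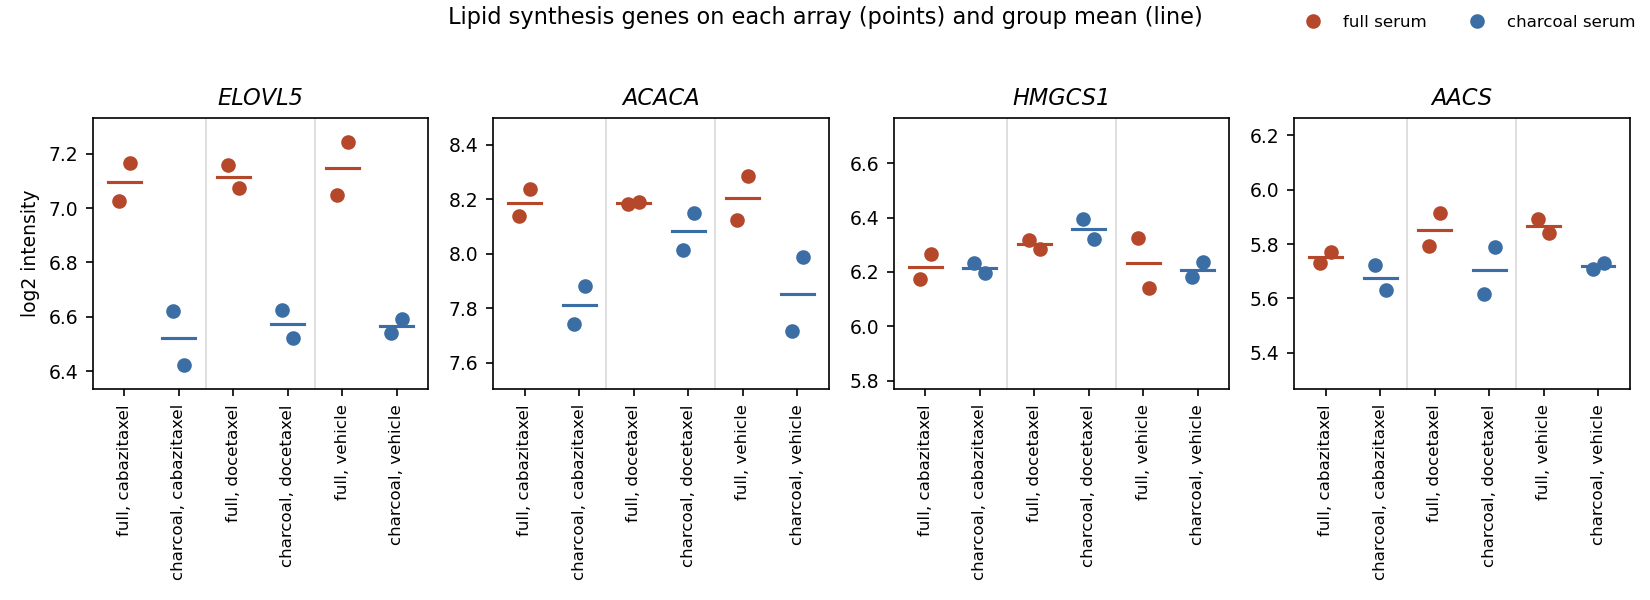
Log2 intensity of ELOVL5, ACACA, HMGCS1 and AACS on each of the 12 arrays, by serum and treatment, with points for arrays and lines for group means. Each axis spans 1 log2 unit at its own level. The 6 full-serum arrays of ELOVL5 lie above its 6 charcoal arrays, and the other 3 genes overlap between the sera.

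As the mean of the 3 treatments, ELOVL5 rose 1.48-fold in full serum (95% confidence interval 1.36 to 1.61). The log2 difference was 0.57 with an SE of 0.0552, and limma, which fits all genes and moderates their variances, gave a Benjamini-Hochberg adjusted p = 0.000207. Genes with an adjusted p under 0.05 over all 11105 genes count as called. By that rule 2 of the 4 genes, ELOVL5 and ACACA, were called higher and none was called lower. Of all tested genes, 1.1% were called higher and 1.21% lower. The 4 genes were chosen with earlier results of these data known, so these shares do not test them as a class. ELOVL5 was the single one of the 4 whose full-serum arrays all lay above its charcoal arrays, as was so for 1.23% of tested genes. Its difference exceeded that of 99.8% of them. ELOVL5 was called without any one of the 12 arrays (log2 difference 0.53 to 0.60).

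The serum difference of ELOVL5 had a similar size under each treatment. It was 0.575 with cabazitaxel (95% confidence interval 0.37 to 0.79, limma adjusted p = 0.0332), where 0.261% of genes were called higher. With docetaxel it was 0.54 (0.33 to 0.75, limma adjusted p = 0.0477), where 0.162% were called higher. With vehicle it was 0.58 (0.37 to 0.79, limma adjusted p = 0.0271), where 0.225% were called higher. These calls with 2 arrays a group were close to the threshold. Leaving out 1 array at a time kept 2 of 12 calls with cabazitaxel, 4 of 12 with docetaxel and 7 of 12 with vehicle, and the lowest log2 difference was 0.477, with cabazitaxel and without charcoal cabazitaxel replicate 2. No test of the drug by serum interaction called ELOVL5: the serum difference under cabazitaxel minus that under vehicle was -0.005 (95% confidence interval -0.30 to 0.29), and under docetaxel minus that under vehicle -0.039 (-0.34 to 0.26).

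ACACA was also higher in full serum, by less, and its call was fragile. Its intensities were 281.5 and 301.6 with cabazitaxel in full serum, against 214.2 and 235.8 with cabazitaxel in charcoal serum. With vehicle they were 279.4 and 312.5 in full serum, against 210.0 and 254.1 in charcoal serum. With docetaxel they were 290.6 and 292.4 in full serum, against 258.5 and 284.3 in charcoal serum. The 2 sera did not overlap within any treatment, but across treatments charcoal docetaxel replicate 2, at 284.3, lay above the lowest full-serum arrays, and 4 of 6 full-serum arrays lay above it. The full-serum arrays were closer together, with a log2 SD of 0.061, against 0.169 among the charcoal arrays.

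As the mean of the 3 treatments ACACA rose 1.21-fold in full serum (95% confidence interval 1.11 to 1.33, log2 difference 0.28, SE 0.0596, limma adjusted p = 0.0351). It was called in 3 of the 12 fits that left out 1 array, with adjusted p from 0.0185 to 0.11. Its log2 difference stayed between 0.23, without charcoal vehicle replicate 1, and 0.32, without charcoal vehicle replicate 2. The call was also lost without the filter on low values (limma adjusted p = 0.0624), with quantile normalization (0.07) and with an assumed constant offset of 16 taken from every value (0.163). It was kept in 4 of 8 alternatives, and a fit that included the replicate number gave a limma adjusted p = 0.00532. By treatment the ACACA difference was 0.375 with cabazitaxel (95% confidence interval 0.15 to 0.60), 0.105 with docetaxel (-0.12 to 0.33) and 0.355 with vehicle (0.13 to 0.58), and limma called none (adjusted p = 0.335, 0.873 and 0.276). Leaving out 1 array moved the docetaxel value to 0.036, without charcoal docetaxel replicate 1, or 0.174, without charcoal docetaxel replicate 2. It moved the vehicle value to 0.218, without charcoal vehicle replicate 1, or 0.492, without charcoal vehicle replicate 2. The docetaxel difference minus the vehicle difference was -0.25 (95% confidence interval -0.57 to 0.071, limma adjusted p = 0.999), so the smaller value under docetaxel was not shown to differ. This interaction ran from -0.388, without charcoal vehicle replicate 2, to -0.113, without charcoal vehicle replicate 1.

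HMGCS1 showed no detectable serum difference. Its intensities were 72.2 and 76.9 with cabazitaxel in full serum, against 75.3 and 73.3 with cabazitaxel in charcoal serum. With docetaxel they were 79.8 and 78.0 in full serum, against 84.1 and 79.9 in charcoal serum. With vehicle they were 80.2 and 70.6 in full serum, against 72.6 and 75.3 in charcoal serum. The sera overlapped with cabazitaxel, with vehicle and over all treatments, at 70.6 to 80.2 in full serum and 72.6 to 84.1 in charcoal serum. With docetaxel both full-serum arrays lay below both charcoal arrays, by a narrow margin. The log2 difference was -0.008 (95% confidence interval -0.11 to 0.093, limma adjusted p = 0.97), an interval from 0.927-fold to 1.07-fold.

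AACS stood between these cases. Its intensities were 53.1 and 54.65 with cabazitaxel in full serum, against 52.8 and 49.5 with cabazitaxel in charcoal serum. With docetaxel they were 55.42 and 60.2 in full serum, against 49.1 and 55.35 in charcoal serum. With vehicle they were 59.4 and 57.3 in full serum, against 52.3 and 53.1 in charcoal serum. Of the full-serum arrays, 4 of 6 lay above the highest charcoal array, and the remaining pair, both with cabazitaxel, lay within the charcoal range. The log2 difference was 0.12 (95% confidence interval 0.021 to 0.23), with an unadjusted p of 0.0229 and a limma adjusted p = 0.255, so AACS did not pass.

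In the order of group means, ELOVL5 ran from vehicle through docetaxel to cabazitaxel in full serum, and then from docetaxel through vehicle to cabazitaxel in charcoal serum. The arrays of neighbouring groups were separate only at the step between the sera. For ACACA the 3 full-serum groups came first and overlapped one another, charcoal docetaxel followed clear of its neighbours on both sides, and the charcoal vehicle and cabazitaxel groups came last and overlapped. For HMGCS1 the charcoal docetaxel group came first, its arrays clear of full-serum docetaxel by a narrow margin (79.9 is its lower array and 79.8 the higher full-serum one), and the next neighbours all overlapped. For AACS the only clear step was between full-serum docetaxel and full-serum cabazitaxel. In full serum the array with the highest ELOVL5 value, vehicle replicate 2, also had the highest ACACA value and the lowest HMGCS1 value. This did not hold in charcoal serum, where the array highest in ELOVL5, docetaxel replicate 1, was also highest in HMGCS1. Pearson's r of ELOVL5 with ACACA was 0.919 in full and -0.037 in charcoal serum (6 arrays each). With HMGCS1 it was -0.314 and 0.469.

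The drugs are taxanes, which stabilise microtubules. A pair of docetaxel's hydroxyl groups are methoxy groups in cabazitaxel, and its other hydroxyl groups are kept. Each was set against the same vehicle arrays, so the 2 drug comparisons are not independent. None of the 4 genes was called with either drug, and limma called 0% of all tested genes with cabazitaxel, with docetaxel and between the drugs as means of both sera. It likewise called 0% with either drug within each serum, and 0% for either drug by serum interaction. At an unadjusted limma p under 0.05 there were 520 genes with cabazitaxel, 672 with docetaxel and 506 between the drugs, of 11105 tested. Without any drug effect, a share of about 0.05 of the tested genes is expected under this threshold. The methods' t-test also left 0 genes after adjustment.

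**Figure D2:**
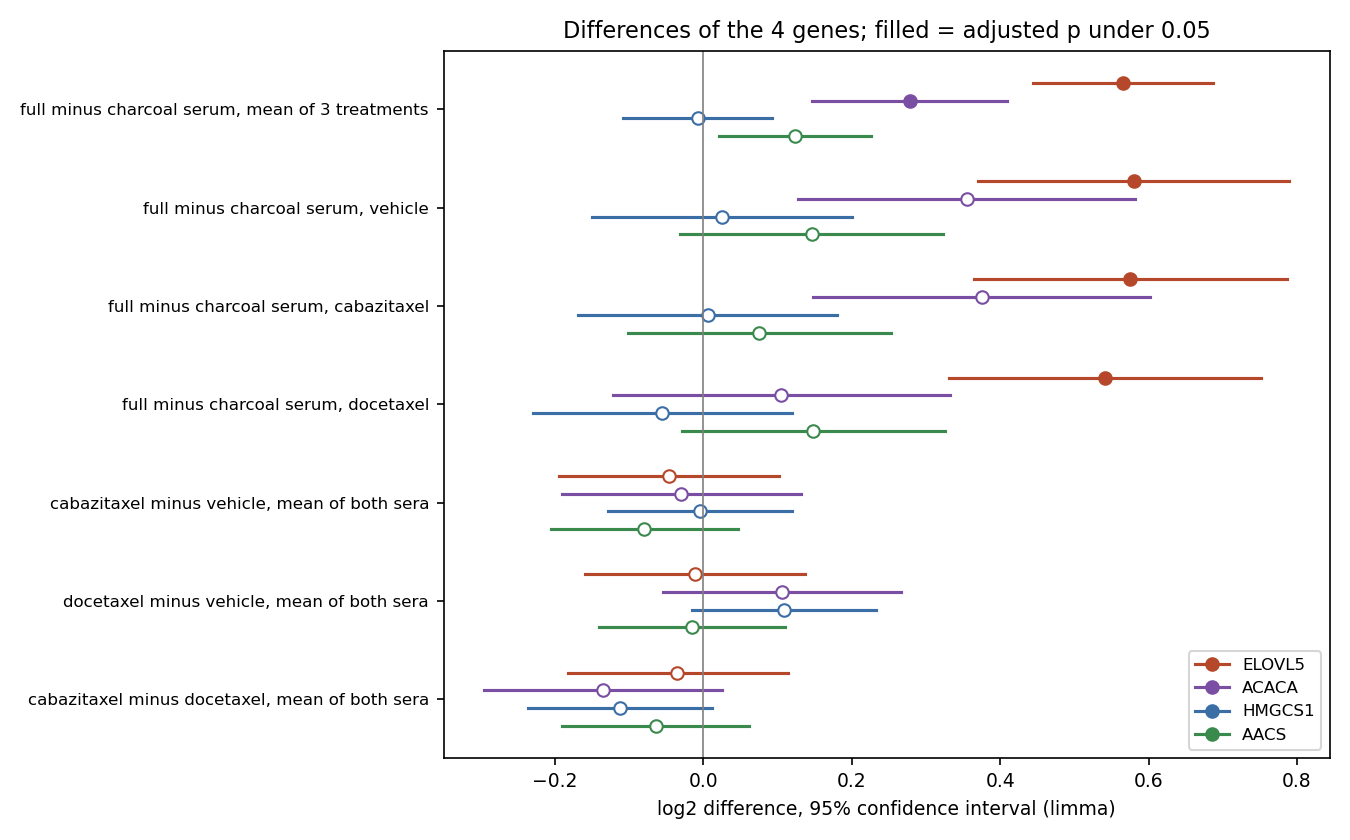
Log2 differences of the 4 genes with 95% confidence intervals of limma, for full minus charcoal serum (as the mean of 3 treatments and within each) and for the drug comparisons as means of both sera. Filled points have an adjusted p under 0.05: ELOVL5 in the 4 serum comparisons and ACACA in the mean one. All drug intervals include 0.

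Averaged over the sera, cabazitaxel minus vehicle was called for none. ELOVL5 had a log2 difference of -0.046 (95% confidence interval -0.20 to 0.10) and ACACA of -0.03 (-0.19 to 0.13). HMGCS1 had -0.004 (-0.13 to 0.12) and AACS -0.08 (-0.21 to 0.046). With docetaxel against vehicle, ELOVL5 had -0.012 (-0.16 to 0.14) and AACS -0.015 (-0.14 to 0.11), while ACACA had 0.11 (-0.055 to 0.27) and HMGCS1 0.11 (-0.015 to 0.23). Every one of these 8 intervals included 0, and their widest bounds were -0.21 and 0.27, so larger drug effects on these 4 genes as means of both sera fell outside them. Intervals within single sera were wider, as for ACACA with docetaxel in charcoal serum (0.004 to 0.458).

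At the matched dose and time, the 2 compounds were compared directly. Cabazitaxel minus docetaxel was -0.035 for ELOVL5 (95% confidence interval -0.18 to 0.11) and -0.064 for AACS (-0.19 to 0.061). It was -0.135 for ACACA (-0.30 to 0.025, unadjusted p 0.0904) and -0.11 for HMGCS1 (-0.24 to 0.011, unadjusted p 0.0708). None of the 4 passed (limma adjusted p from 0.958 to 0.975), and the intervals for ACACA and HMGCS1 leave room for a lower level with cabazitaxel as well as for none.

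Within single sera the 16 drug differences of the 4 genes ran from -0.115, for AACS with cabazitaxel in full serum, to 0.23, for ACACA with docetaxel in charcoal serum. That ACACA value came from 258.5 and 284.3 with docetaxel, against 210.0 and 254.1 with vehicle, so both docetaxel arrays lay above both vehicle arrays. Its unadjusted p was 0.047, and limma did not call it (adjusted p = 0.962). It was 0.093 without charcoal vehicle replicate 1 and 0.368 without charcoal vehicle replicate 2. HMGCS1 had 0.15 in the same comparison (95% confidence interval -0.026 to 0.32), with 84.1 and 79.9 in docetaxel arrays, against 72.6 and 75.3 in vehicle arrays. In full serum the docetaxel differences of these genes were -0.019 for ACACA and 0.068 for HMGCS1.

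The neighbouring enzymes were read from 9 lists of lipid metabolism, of which 59 of 125 genes were tested and the rest were not analysed here or fell below the filter. As the mean of 3 treatments, 33 were higher and 26 lower in full serum, with a median log2 difference of 0.0189, against -0.00142 over all tested genes, of which 49.1% were higher. Limma called 5 of the 59 (8.47%), namely ELOVL5, ACACA and ELOVL7 higher and INSIG2 and ACAA2 lower. Of all tested genes, 1.1% were called higher and 1.21% lower. The 59 include the genes described here, ELOVL5 and ACACA among them. These genes and the lists were chosen with earlier results of these data known, so the 8.47% is not a test of lipid genes against all genes.

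In the list of fatty acid elongation and desaturation, 8 of 11 genes had a higher mean in full serum (median 0.0712), and 2 were called. ELOVL7, an elongase of saturated very long chain fatty acids, rose by 0.59 (limma adjusted p = 0.000784). With the assumed offset of 16 subtracted the ELOVL7 difference was 1.23, against 0.66 for ELOVL5, so the size of the ELOVL7 change depends on the floor of the values. Its intensities were 31.0 to 43.2 in full serum and 23.9 to 27.3 in charcoal serum, without overlap. ELOVL6, which elongates palmitate, had a difference of -0.035 and the desaturase SCD5 of -0.023.

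Among 7 genes of fatty acid synthesis and its regulators, ACACA was the only one called, with 4 higher and 3 lower (median 0.0882). FASN, the fatty acid synthase that uses the malonyl-CoA made by ACACA, stood at 0.19 (limma adjusted p = 0.302, not called), at 87.0 to 109.9 in full serum and 73.9 to 95.7 in charcoal serum. MLYCD, which breaks malonyl-CoA down, had -0.13, and MID1IP1, which promotes the polymerisation of acetyl-CoA carboxylase, had -0.13. Of 5 genes of acetyl-CoA and NADPH supply none was called, with ACLY, the citrate lyase that makes cytosolic acetyl-CoA, at 0.16 (limma adjusted p = 0.115) and citrate synthase CS at 0.11.

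Of the 15 genes of the mevalonate and cholesterol pathway tested, which include HMGCS1, none was called. Their means were higher for 9 and lower for 6, with a median of 0.0459. The highest were the sterol isomerase EBP at 0.18 (limma adjusted p = 0.19) and the reductase DHCR7 at 0.14, and the lowest were the reductase TM7SF2 at -0.083 and the farnesyl diphosphate synthase FDPS at -0.056. With quantile normalization 8 were higher and 7 lower. Of the 3 ketone body genes tested, AACS had 0.12, the ketolytic transferase OXCT1 -0.022 and the mitochondrial thiolase ACAT1 -0.083, and none was called. OXCT1 stood at 0.044 when a gene's transcript clusters were averaged.

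**Figure D3:**
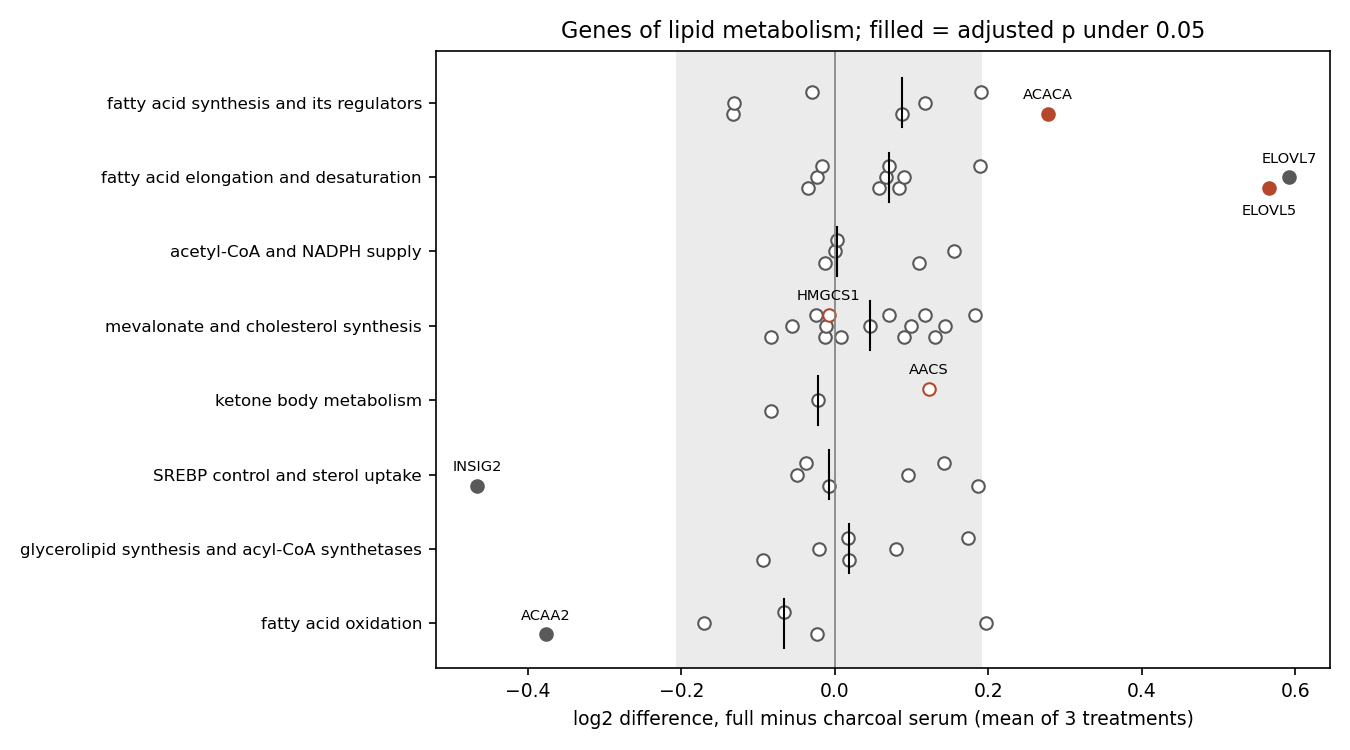
Log2 difference of full minus charcoal serum, as the mean of 3 treatments, for tested genes of 8 lists of lipid metabolism. Each point is a gene, red for the 4 genes described, and filled where the adjusted p was under 0.05; black bars are list medians. The grey band holds the middle 95% of all tested genes, -0.205 to 0.191. The called genes ELOVL5, ELOVL7 and ACACA lie above it, the called genes INSIG2 and ACAA2 below it, and ECI1, at 0.20 and not called, just past its upper edge.

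Among 7 genes of SREBP control and sterol uptake, 3 were higher and 4 lower (median -0.00808), and 1 was called. INSIG2, which retains the SREBP escort protein in the endoplasmic reticulum, fell by 0.47 on the log2 scale (limma adjusted p = 0.000544), at 54.1 to 58.5 in full serum and 72.0 to 84.4 in charcoal serum, without overlap. All full-serum arrays lay below all charcoal arrays for 1.43% of tested genes. Its relative INSIG1 had 0.19 (limma adjusted p = 0.313), and the escort protein gene SCAP had 0.14.

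Of 5 genes of fatty acid oxidation, 1 was higher and 4 lower (median -0.0661). ACAA2, the mitochondrial thiolase that ends each round of beta-oxidation, fell by 0.38 on the log2 scale (limma adjusted p = 0.00679), at 35.0 to 46.3 in full serum and 47.2 to 56.0 in charcoal serum, and by 0.59 with the offset subtracted. CPT2, the inner carnitine palmitoyltransferase, had -0.17 and the isomerase ECI1 0.20, and neither passed. Of 6 genes of glycerolipid synthesis and fatty acid activation 4 were higher and 2 lower (median 0.0181), with DGAT1, which completes triglycerides, at 0.17 and the phosphatidate phosphatase LPIN3 at -0.093, and none was called. In the list of sterol efflux and LXR targets 2 genes were tested, SREBF1 at 0.095 and MYLIP at -0.037.

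Androgen-induced genes outside lipid synthesis were higher on the same full-serum arrays as ELOVL5. Of 17 listed, 12 were tested, all 12 had higher means in full serum and 11 were called higher, with a median log2 difference of 0.81, where 49.1% of all tested genes were higher and 1.1% were called higher. The untested ones include ACSL3 and CAMKK2, which are also on the lists of lipid metabolism. The range ran from 0.034 for STEAP4, which did not pass, to 1.94 for TARP, an androgen-induced transcript from the gamma chain locus of the T-cell receptor. Prostate-specific antigen, KLK3, rose by 0.97 (limma adjusted p = 0.000368). The list was drawn up with earlier results of these arrays known.

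The tested genes whose log2 values followed each gene most closely over the 12 arrays were found by Pearson's r, as a description. For ELOVL5 these were ABHD2, an androgen-induced lipase gene (r = 0.976), the kinase gene STK39 (0.976) and the kallikrein gene KLK2 (0.975), and 40 genes had r above 0.9. The arrays fall into the 2 sera for these genes, and with the mean of each serum removed the values were 0.698, 0.523 and 0.541. For ACACA they were FN1, which encodes fibronectin (0.938), MPHOSPH9 (0.922) and ARFGEF3 (0.917). Within the sera the values were 0.864, 0.801 and 0.804, and 9 genes had r above 0.9. Replicate 2 was higher than replicate 1 in 6 of 6 groups both for ACACA and for FN1, against 3 of 6 for ELOVL5, and the part of a shared deviation of same-numbered arrays in these r values was not tested.

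**Figure D4:**
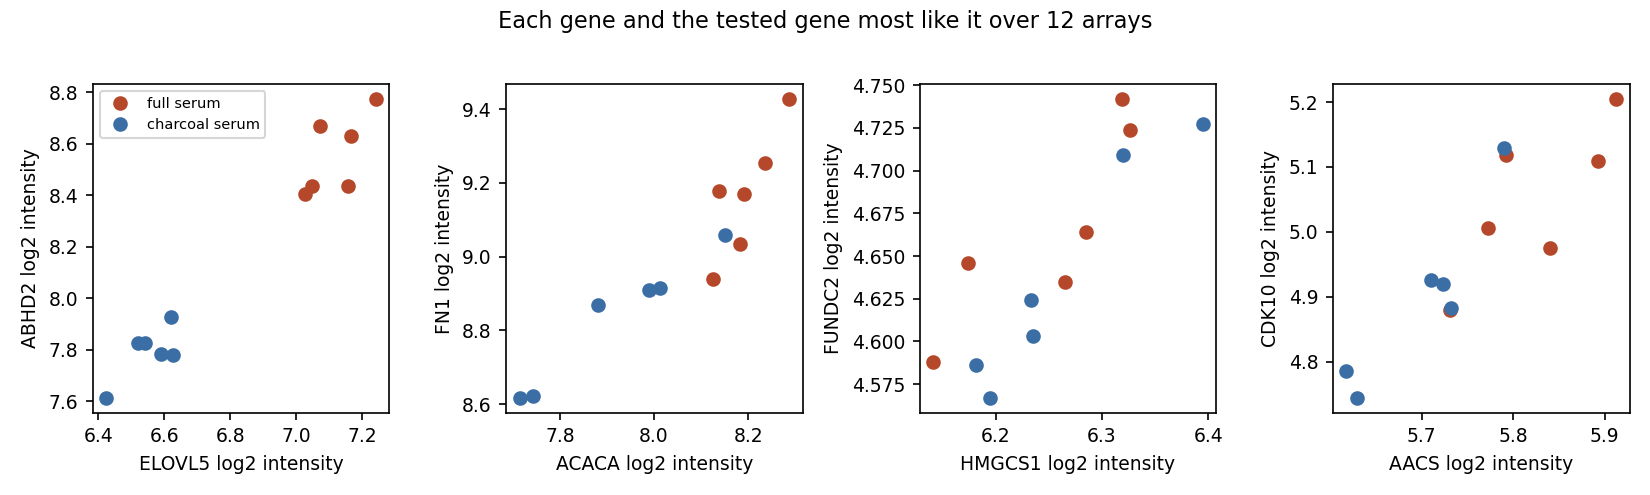
Log2 intensity of each of the 4 genes against that of the tested gene most like it, with a point for each of the 12 arrays. ELOVL5 and ABHD2 form separate clouds by serum, while ACACA with FN1, HMGCS1 with FUNDC2 and AACS with CDK10 run through both sera. The gene pairs share arrays, and r was 0.976, 0.938, 0.87 and 0.894.

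For HMGCS1 the closest genes were FUNDC2 (0.87), ZFP28 (0.846) and AMBRA1 (0.843), with 0.917, 0.846 and 0.846 within the sera. For AACS they were CDK10 (0.894), DRC11 (0.88) and THBS3 (0.875), with 0.855, 0.808 and 0.809 within the sera. No gene reached 0.9 with either. FUNDC2 had intensities of only 23.71 to 26.76 and CDK10 of 26.79 to 36.9, where all values had a median of 22.31 and a lowest of 17.32. The part of this low level in their r values was not tested. The top pairs were picked from all 11105 genes, and values from the same array share its deviations.

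FN1, the gene most like ACACA, is also on the list of fibroblast markers. Its intensities were 490.9 to 688.7 in full serum and 392.6 to 533.7 in charcoal serum, a log2 difference of 0.34 (limma adjusted p = 0.0838, not called). Of 9 fibroblast markers 5 were measured, with summed intensities of 597.4 to 783.7 in full serum and 488.5 to 628.7 in charcoal serum, mostly from FN1. The fibroblast genes DCN and LUM did not exceed the median of all values on any array, VIM had a difference of 0.011 and THY1 of 0.058. None of the markers was listed at 0, which says nothing about their expression, since the lowest value of any gene was 17.32. Of 6 immune markers, CD68 and CD14 were measured and summed to 57.1 to 61.7 in full serum and 53.9 to 60.8 in charcoal serum. CD14 did not exceed the median of all values on any array. Of 6 neuroendocrine markers, 4 were measured and summed to 87.0 to 92.3 in full serum and 85.8 to 89.8 in charcoal serum. Among them CHGB and NCAM1 did not exceed that median on any array, while CHGA and SYP exceeded it on all 12. The immune marker CD68 and the fibroblast markers FN1, VIM and THY1 also exceeded it on all 12. The part of all these markers in the ACACA difference was not tested.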

How the data were processed

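RNA of 12 LNCaP samples was amplified and hybridised to Affymetrix Human Gene 2.0 ST arrays, per the labels. The deposited values are intensities from RMA, a background correction and normalization that the authors ran, as the submitters' processing notes say without a version. The log2 scale is not used in them: values are linear, between 17.32 and 6307 (median 22.31), so a floor may compress the changes of weakly expressed genes, and folds of low genes may be too small. The design text names a removal of weakly expressed genes but no threshold. The genome build is not given in the sources used here. The series' files held 44629 transcript clusters, of which 15835 had a single symbol in the platform annotation and 28794 did not and were left out.

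The log2 of each value was taken, and where a gene had several clusters the one with the highest mean over 12 arrays was kept. Genes above the median of all values on at least 2 arrays were tested with limma (version 3.58.1, R version 4.3.3). A single fit of all 12 arrays gave each group its own mean and left 6 residual and 5.08 prior degrees of freedom. Two-sided p-values were adjusted within each of 13 comparisons after Benjamini and Hochberg. The code was tested on simulated data. The authors' design text names a Student t-test, which was run as an alternative (the methods' t-test). Other alternatives were the filter, an assumed offset, centring, quantile normalization, averaged clusters, a variance trend, a replicate block, the arrays of the comparison alone, and each array left out.

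The rule for naming genes took the 4 genes, every called gene and the 2 highest and 2 lowest serum differences of each list, and the 3 genes most like each of the 4, and not all of these are printed. The 4 genes and all 15 lists were chosen with earlier results of these data known. Promoter windows are from RefSeq, GRCh38.p14, and all 4 genes matched by symbol. Samples with the same replicate number deviated together in part, with r from -0.049 to 0.326 and a median of 0.151 over 15 pairs of groups. Of these pairs 14 were positive and 10 above 0.1. The labels do not say that the numbers pair the samples, so the main fit left them out and the replicate block was run as an alternative.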

Additional observations from a re-analysis of the deposited data

How the results depend on the processing

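The serum difference of ELOVL5 as the mean of 3 treatments was called in each of 8 alternatives (0.56 to 0.66) and without each array, and so were those of ELOVL7 (0.592 to 1.232 over the alternatives), INSIG2 (-0.616 to -0.46) and ACAA2 (-0.586 to -0.368), each largest with the offset. The ACACA value was 0.278 without the filter, 0.297 with the offset of 16 subtracted, 0.253 with quantile normalization and 0.278 with the methods' t-test (adjusted p = 0.113), each uncalled, and 0.232 to 0.324 without 1 array. Within treatments, ELOVL5 with cabazitaxel, docetaxel and vehicle was uncalled at 0.575, 0.541 and 0.58 without the filter (more genes tested), with only the arrays of the comparison and with the methods' t-test, and at 0.673, 0.63 and 0.674 with the offset. With docetaxel it was uncalled at 0.541 with a variance trend (adjusted p = 0.053). Without 1 array it ran from 0.477 to 0.674 with cabazitaxel, 0.488 to 0.594 with docetaxel and 0.484 to 0.676 with vehicle. The cause of these losses was not tested.

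Genes called higher numbered 66, and lower 66, with the offset, against 122 and 134, and 71 to 124 and 76 to 131 without 1 array. Within cabazitaxel, docetaxel and vehicle, 29, 18 and 25 genes were called higher, and 9, 7 and 12 with the offset, 7, 9 and 1 with only the arrays of the comparison, and 1, 0 and 0 with the methods' t-test. Without 1 array these were 8 to 30, 6 to 22 and 6 to 26. With cabazitaxel there were 18 without the filter. The replicate block gave 29 with docetaxel and changed no call of the 4 genes, with adjusted p = 0.00532 for ACACA, while FN1, at 0.336, was called with it (adjusted p = 0.00645). OXCT1 was 0.044 with averaged clusters.

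Small uncalled values changed sign. With quantile normalization HMGCS1 between the sera with cabazitaxel was -0.02, HMGCS1 for cabazitaxel minus vehicle 0.003 and ELOVL5 for cabazitaxel minus docetaxel 0.007. Without 1 array, HMGCS1 between the sera ran from -0.039 to 0.023, from -0.067 to 0.118 with vehicle and from -0.04 to 0.051 with cabazitaxel. For cabazitaxel minus vehicle, ELOVL5 ran from -0.095 to 0.003, ACACA from -0.099 to 0.039 and HMGCS1 from -0.05 to 0.042. For docetaxel minus vehicle, ELOVL5 ran from -0.06 to 0.036 and AACS from -0.059 to 0.028, and in full serum ACACA from -0.1 to 0.061 and HMGCS1 from -0.024 to 0.16. For cabazitaxel minus docetaxel ELOVL5 ran from -0.084 to 0.014. A group left with 1 array was assumed to vary like the others. As means of both sera, no gene was called for either drug, or between them, under any alternative run. With 2 arrays a group, small drug effects were not detectable.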
